A study of Mus musculus with 26 samples.

Results

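The muscle and vessel genes of the testis were examined in adult mice: 12 genes of peritubular myoid and smooth muscle cells, 5 genes of mural cells (the pericytes and muscle cells that coat small vessels) and 16 endothelial genes. The 33 genes were chosen by symbol, and each was found once among the 51124 genes of the expression table. Peritubular myoid cells are flat, contractile cells that wrap the seminiferous tubule and move its fluid and sperm along. They use the same contractile set as vascular smooth muscle, in which calcium activates myosin light chain kinase, which in turn phosphorylates the myosin light chain. Blood vessels of the testis run between the tubules and never enter them, so endothelial and mural cells lie in the interstitium, near the Leydig cells.

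Total RNA from whole adult testes was sequenced in 6 libraries. N1 and N2 were wild type (WT). N3 and N4 came from 10xPerf mice, whose Ythdc2 gene, a helicase gene of meiotic germ cells, has 10 sites in its 3′UTR that pair fully with piR-A, a piRNA of pachytene cells. N5 and N6 came from 10xBulge mice, which carry 10 such sites with mismatches opposite piRNA nucleotides 10 and 11. The knock-ins were made by CRISPR/Cas9 in the B6D2F1/J hybrid line and change Ythdc2 in every cell, while Ythdc2 itself is expressed in the germline. Ages beyond adult, the number of founders per line, and whether each library came from a different mouse are not given in the sources used here. The piRNA immunoprecipitation libraries of the study were not analysed here.

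Values are the deposited normalised read counts. A depth of about 41100000 to 61600000 reads per library was estimated by taking the most frequent nonzero value in each column as a single read. That would put 3 reads at 2.73 to 3.63 normalised counts. The WT library N1 stood apart, since the ribosomal RNA gene Rn18s took 4.02% of the total in N1 and 0.0449% to 0.41% in the other 5 libraries. The 10 spermatid genes summed to between 499320 and 691383 in WT, 596389 and 663839 in 10xPerf, and 1053 and 1739 in 10xBulge, and 10 of 10 were called lower in 10xBulge. With 2 libraries a genotype, an exact permutation test cannot go below p = 0.33, so calls rest on limma fits over all 23782 genes tested, with a gene called at a Benjamini-Hochberg adjusted p under 0.1. All 33 genes passed the filter on low values. In a bulk sample, fewer cells of a type and less RNA per cell cannot be told apart.

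The muscle and vessel genes were moderately abundant and covered a wide range of levels. Between genes, levels are compared here as normalised counts per kb of the longest annotated transcript. Actg2 (smooth muscle gamma-actin) led in WT with 7297 per kb, from 5942 to 8652 in the individual libraries. Myl9 (the smooth muscle myosin regulatory light chain) followed at 2306 per kb and Acta2 (smooth muscle alpha-actin, the classic myoid marker) at 1622 per kb. The next levels, still per kb in WT, were those of Sox17 (an endothelial transcription factor of the SoxF family) at 403, Tagln (transgelin, an actin-binding protein) at 369 and Mylk (myosin light chain kinase) at 353. At the other end, Synpo2 (an actin-bundling protein of the muscle Z-disc) stood at 6.68 per kb and Emcn (endomucin, a sialomucin of venous and capillary endothelium) at 3.29 per kb. In this order 27 of the 32 pairs of neighbours had overlapping WT libraries. Gaps without overlap lay below Actg2, Acta2, Sox18, Robo4 and Synpo2.

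**Figure D1:**
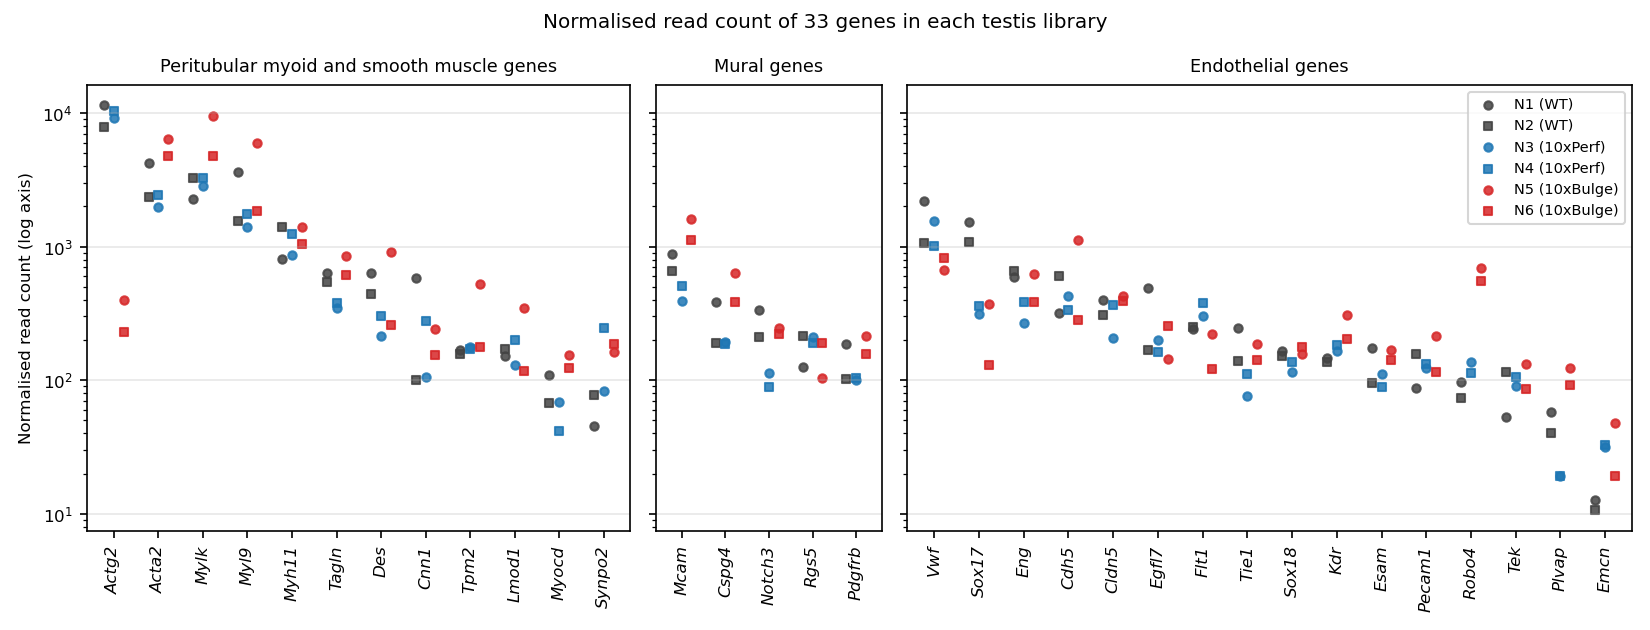
Normalised read count (log axis) of the 33 genes in the 6 libraries, with genes of each group ordered by their WT mean. Circles and squares are the 2 libraries of a genotype. Actg2 drops from 7921 or more in the WT and 10xPerf libraries to 397 and 228 in 10xBulge, Sox17 is below both WT libraries in both knock-in lines, and Robo4 is highest in the 10xBulge libraries.

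Against WT, the 10xBulge testes had 5 of the 33 genes called, 3 higher and 2 lower. Mylk, Synpo2 and Robo4 rose, and Actg2 and Sox17 fell. The 3 genes called higher are 9.09% of the list, beside 11.4% of all genes tested, and the 2 called lower are 6.06%, beside 23.0%. Both 10xBulge libraries lay above both WT libraries for 11 of 33 genes (33.3%, beside 28.9% of all genes) and below them for 4 (12.1%, beside 33.2%). The median log2 fold change was 0.33 over the 33 genes and -0.0257 over all genes. The share called higher was thus close to the background, and the share called lower was smaller than in the whole table.

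Among the 12 muscle genes, 2 were called higher (16.7%, beside 11.4% of all genes) and 1 lower (8.33%, beside 23.0%) in 10xBulge. Actg2 had 11533 and 7921 normalised counts in WT, 9217 and 10397 in 10xPerf, and 397 and 228 in 10xBulge. The WT and 10xPerf libraries overlapped and both 10xBulge libraries lay far below them. The gene fell by 4.99 on the log2 scale (SE 0.43, adjusted p = 3.18e-05 by limma), which is 31.7-fold, and it stayed called in all 17 alternative fits, at -6.25 to -4.59. Smooth muscle gamma-actin is known from enteric muscle and has also been described in postmeiotic male germ cells. The spermatid list fell in the same libraries, by a median of 8.33 on the log2 scale, and its part in the Actg2 value was not tested.

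Acta2, the other smooth muscle actin, did not follow. It had 4261 and 2340 normalised counts in WT, 1996 and 2453 in 10xPerf, and 6357 and 4786 in 10xBulge, so both 10xBulge libraries were the highest of the 6. The difference from WT was 0.80 on the log2 scale (95% confidence interval -0.17 to 1.78, adjusted p = 0.204). Acta2 was called higher with scaling to library totals. Per kb, Actg2 was 4.13 and 5.17 times the level of Acta2 in WT, 7.05 and 6.47 times in 10xPerf, and 0.0953 and 0.0726 times in 10xBulge. The order of the actins was therefore turned around in both 10xBulge libraries. No stretch of 100 bases, the length of a read, of either longest transcript occurred in the transcripts of another gene, so reads of the 2 actins can be told apart.

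Mylk, the kinase that starts contraction, had 2279 and 3252 normalised counts in WT, 2838 and 3253 in 10xPerf, and 9443 and 4739 in 10xBulge. Both 10xBulge libraries exceeded the other 4, but they differed from each other as well. The rise against WT was 1.30 on the log2 scale (SE 0.45, adjusted p = 0.0647), and the call was lost without N1, N3, N4 or N5, where the adjusted p reached 0.269. It was also lost with only the 2 genotypes fitted (adjusted p = 0.134), with no mean-variance trend (0.101) and with centring on Sertoli genes, where the difference was 0.03 (adjusted p = 0.953). Synpo2 had 45.5 and 77.5 normalised counts in WT, 83.1 and 248 in 10xPerf, and 163 and 187 in 10xBulge, with a rise of 1.54 (SE 0.59, adjusted p = 0.0858) that was lost without N1, N2, N5 or N6, up to an adjusted p of 0.375, and with centring on Sertoli genes, where the difference was 0.28 (adjusted p = 0.74). The Synpo2 call was also lost with a filter of 1 in 1 library, with a pseudocount of 0.1 and with no mean-variance trend. Its 10xPerf libraries spanned the 10xBulge ones. The number of muscle genes called fell from 3 to 1 without N1 and without N5, and the remaining gene was Actg2 in both fits.

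Apart from these genes and Acta2, 8 muscle genes were not called against WT in 10xBulge. Tpm2 (beta-tropomyosin, which lies along the actin filament) and Myocd (myocardin, the coactivator that switches on smooth muscle genes) had 10xBulge values that both exceeded the WT values, at 529 and 176 against 167 and 157 for Tpm2 and 155 and 124 against 110 and 67.5 for Myocd. Their log2 differences were 0.91 and 0.68, with adjusted p = 0.25 and 0.344. Tpm2 was called higher with scaling to library totals. Libraries overlapped for Myh11 (smooth muscle myosin heavy chain), Tagln, Myl9, Lmod1 (leiomodin, an actin filament nucleator), Des (desmin, the muscle intermediate filament) and Cnn1 (calponin, an inhibitor of actomyosin), whose log2 differences ran from -0.32 for Cnn1 to 0.48 for Myl9. Myh11 and Des were called lower with centring on Sertoli genes. Within the 10xBulge pair, 11 of 12 muscle genes were higher in N5 than in N6, and Des at 919 against 259 and Myl9 at 5988 against 1855 show how wide that gap was.

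None of the 5 mural genes was called in 10xBulge against WT by limma, beside 11.4% of all genes called higher and 23.0% called lower. At an unadjusted p under 0.05 there were 0 of 5, beside 38.5% of all genes tested. Mcam (CD146, an adhesion molecule of pericytes and endothelium) had 874 and 655 normalised counts in WT and 1606 and 1130 in 10xBulge, a difference of 0.83 (95% confidence interval -0.09 to 1.75, adjusted p = 0.167). Cspg4 (the NG2 proteoglycan of pericytes) had 383 and 190 in WT and 638 and 386 in 10xBulge, a difference of 0.88 (adjusted p = 0.216). For these genes the 10xBulge libraries lay above both WT libraries. Both genes were called higher with scaling to library totals, and Mcam also with the GC trend removed. The libraries overlapped for Pdgfrb (the PDGF receptor that recruits pericytes) at a difference of 0.40, Notch3 (the Notch receptor of arterial muscle) at -0.19 and Rgs5 (a regulator of G protein signalling in pericytes) at -0.23. With centring on Sertoli genes Notch3 and Rgs5 were called lower.

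Of the 16 endothelial genes, Robo4 was called higher and Sox17 lower in 10xBulge, 6.25% of the list each, beside 11.4% and 23.0% of all genes. Robo4 (an endothelial Roundabout receptor that stabilises vessels) had 96.7 and 74.1 normalised counts in WT, 137 and 114 in 10xPerf, and 695 and 557 in 10xBulge. All 3 genotypes were apart for this gene, and the 10xBulge libraries agreed closely. The rise against WT was 2.86 on the log2 scale (SE 0.42, adjusted p = 0.000866), or 7.28-fold, and it remained called in all 17 alternative fits, at 1.60 to 3.24.

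Sox17 had 1534 and 1078 normalised counts in WT, 314 and 361 in 10xPerf, and 370 and 129 in 10xBulge. Both knock-in lines lay below both WT libraries. In 10xBulge it fell by 2.55 on the log2 scale (SE 0.53, adjusted p = 0.00698), which is 5.86-fold, and it stayed called in all 17 alternative fits, at -3.82 to -1.79. Sox18, a close relative with much the same role in vessels, had 165 and 152 in WT, 116 and 138 in 10xPerf, and 156 and 176 in 10xBulge, a difference of 0.07 from WT (95% confidence interval -0.87 to 1.01). Per kb, Sox17 was 4.66 and 3.55 times Sox18 in WT, 1.35 and 1.31 times in 10xPerf, and 1.18 and 0.366 times in 10xBulge. As background, a testis form of Sox17 is known in spermatogenic cells, and gene-level counts do not separate it from the endothelial one.

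Cdh5, Pecam1, Cldn5, Esam, Eng and Egfl7 were not called in 10xBulge against WT. Cdh5 (VE-cadherin of endothelial junctions) had 319 and 606 normalised counts in WT and 1120 and 282 in 10xBulge. Pecam1 (CD31, an endothelial adhesion molecule) had 88 and 158 in WT and 215 and 115 in 10xBulge. Libraries overlapped for both, with differences of 0.35 (95% confidence interval -1.10 to 1.80) and 0.41 (-0.73 to 1.55). Overlap was also seen for Cldn5 (claudin of tight junctions, 0.23), Esam (a junctional adhesion molecule, 0.25), Eng (endoglin, a TGF-beta co-receptor, -0.36) and Egfl7 (a secreted endothelial matrix protein, -0.58). Eng and Egfl7 were called lower with centring on Sertoli genes. In Egfl7, 1.59% of the 100-base windows occur in another gene, and 0% in every other gene of the list.

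Among the growth factor receptors, the VEGF receptors differed from WT in opposite directions, without a call for either. Kdr (VEGF receptor-2, the main signalling receptor) had 147 and 138 normalised counts in WT, 166 and 183 in 10xPerf, and 306 and 203 in 10xBulge. Flt1 (VEGF receptor-1, which can act as a decoy) had 240 and 249 in WT, 305 and 380 in 10xPerf, and 223 and 122 in 10xBulge. In 10xBulge both libraries lay above WT for Kdr and below it for Flt1, with differences of 0.80 (adjusted p = 0.199) and -0.56 (adjusted p = 0.391), neither called. In alternative fits, Kdr was called higher with scaling to library totals, and Flt1 lower with centring on Sertoli genes. The level of Flt1 per kb was 1.40 to 1.78 times that of Kdr in the WT and 10xPerf libraries and 0.627 and 0.518 times in 10xBulge. The angiopoietin receptor Tek (TIE2) and its partner Tie1 overlapped between 10xBulge and WT, at 0.46 and -0.19. With centring on Sertoli genes Tie1 was called lower. Per kb Tie1 was 5.09 times Tek in N1, against 0.921 to 1.79 times in the other 5 libraries.

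**Figure D2:**
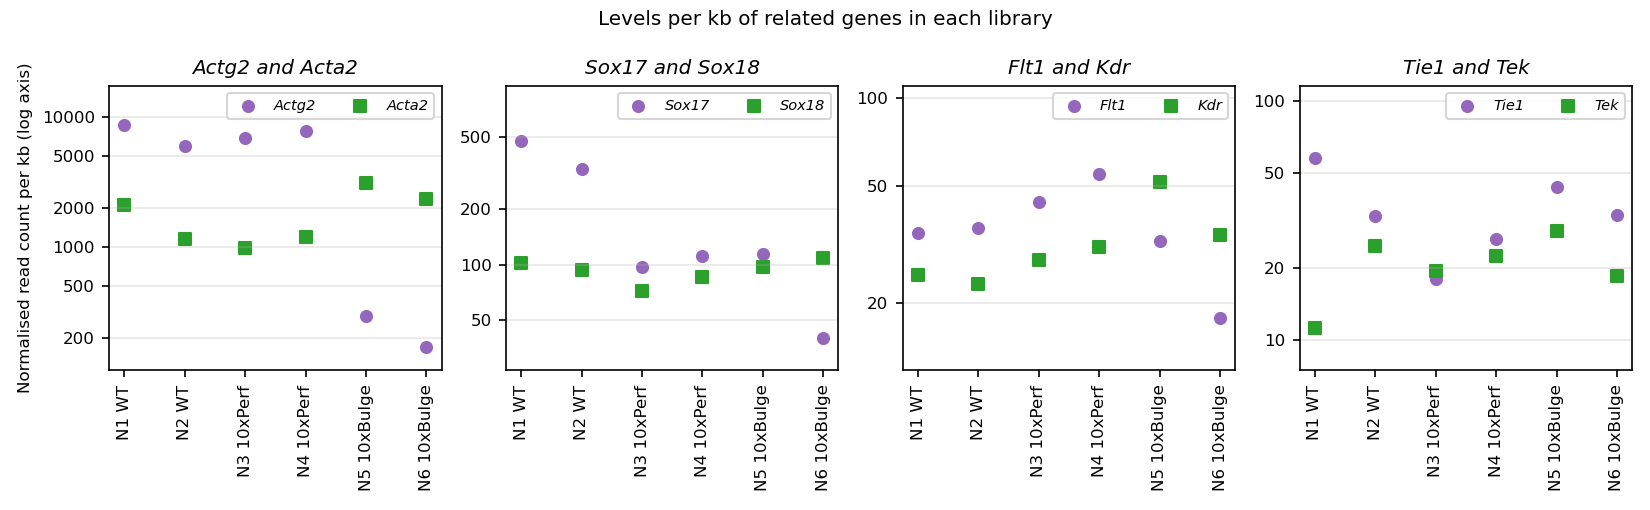
Normalised read count per kb (log axes, a separate range in each panel) of Actg2 and Acta2, Sox17 and Sox18, Flt1 and Kdr, and Tie1 and Tek in the 6 libraries. Points are single libraries. Actg2 lies above Acta2 in WT and 10xPerf and below it in 10xBulge, Flt1 and Kdr change places in the same libraries, and Sox17 nears or passes below Sox18 outside WT.

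The remaining endothelial genes were low or variable. Vwf (von Willebrand factor, stored in endothelial granules) had 2188 and 1064 normalised counts in WT, 1550 and 1006 in 10xPerf, and 666 and 817 in 10xBulge, a difference of -1.05 (95% confidence interval -2.10 to 0.01, adjusted p = 0.132). It was called lower with the GC trend removed (-1.16, adjusted p = 0.0668), with centring on Sertoli genes (-2.31, adjusted p = 0.0121) and without N2 (-1.57, adjusted p = 0.0703). Plvap (the diaphragm protein of fenestrated capillaries) had 57.9 and 40 in WT and 123 and 91.7 in 10xBulge, a difference of 1.12 (adjusted p = 0.133). It was called higher with library totals (adjusted p = 0.0434), a pseudocount of 10 (0.99, adjusted p = 0.0932) and the GC trend removed (1.05, adjusted p = 0.0997), and became -0.14 with centring on Sertoli genes. Emcn had 12.6 and 10.6 in WT, 31.5 and 32.7 in 10xPerf, and 47.7 and 19.3 in 10xBulge, so it was lowest in WT, with 1.33 (adjusted p = 0.147) for 10xBulge, and it was called with library totals (1.69, adjusted p = 0.056) and with a filter of 10 in every library (adjusted p = 0.0964). Without N6 the number of endothelial genes called rose from 2 to 4, with Cdh5 and Emcn added.

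**Figure D3:**
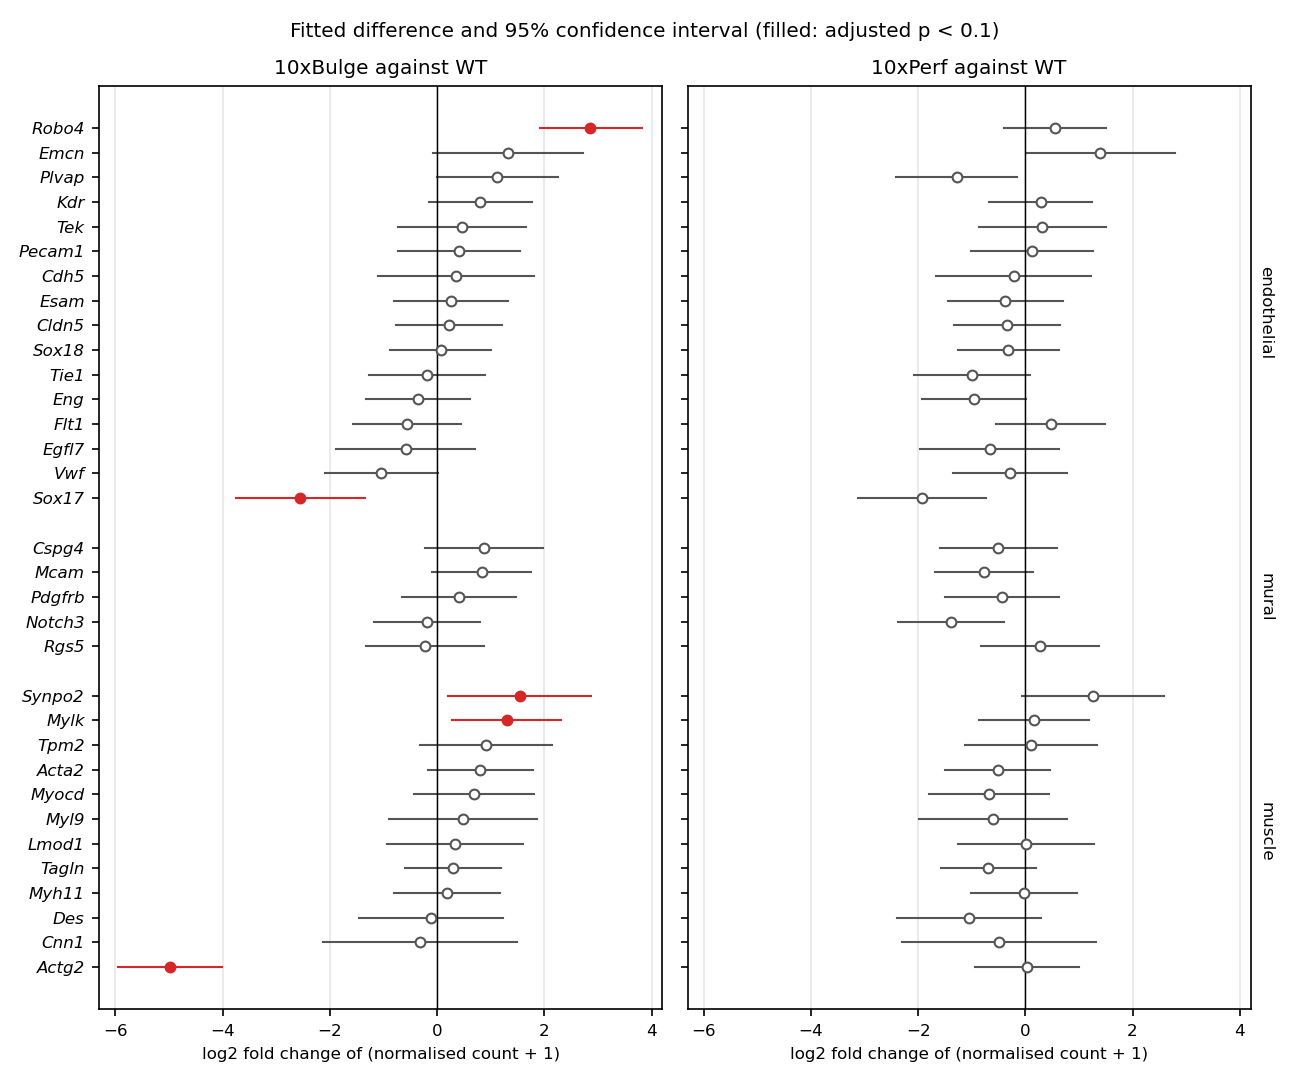
Fitted log2 fold change of normalised count + 1 for each gene, 10xBulge against WT (left) and 10xPerf against WT (right). Points are limma estimates from 2 libraries a genotype, lines are 95% confidence intervals, and filled red marks an adjusted p under 0.1. Actg2, Sox17, Mylk, Synpo2 and Robo4 are filled on the left, at -4.99, -2.55, 1.30, 1.54 and 2.86, and no gene is filled on the right.

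In 10xPerf, none of the 33 genes was called against WT, higher or lower, beside 0.467% of all genes called higher and 0.492% called lower. At an unadjusted p under 0.05 there were 0 muscle genes, 1 mural gene and 3 endothelial genes, together 12.1% of the 33, beside 6.09% of all genes tested. Sox17 came nearest, at -1.93 on the log2 scale (95% confidence interval -3.13 to -0.73, adjusted p = 0.301), and it was called when only the WT and 10xPerf libraries were fitted (adjusted p = 0.0465), and without N5 (0.0568) or N6 (0.0495). In the limma fit of 10xPerf against WT, N5 and N6 enter only the estimate of the spread and the filter on low values. The deposited values were normalised beforehand, and any part of N5 and N6 in that step remains in every fit. Notch3 had 333 and 210 normalised counts in WT and 114 and 88.5 in 10xPerf, a difference of -1.39 (95% confidence interval -2.38 to -0.40, adjusted p = 0.465). Plvap was at 19.3 and 19.1 in 10xPerf, below both WT libraries, with -1.28 (adjusted p = 0.71), and Emcn was above both with 1.40 (adjusted p = 0.816).

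Both 10xPerf libraries lay above both WT libraries for 6 of the 33 genes (18.2%, beside 20.2% of all genes) and below them for 9 (27.3%, beside 19.8%). The lower ones were Des, Tagln, Notch3, Mcam, Tie1, Eng, Sox17, Sox18 and Plvap. The higher ones were Tpm2, Synpo2, Kdr, Flt1, Emcn and Robo4. The median log2 fold change was -0.34 over the 33 genes and 0.0176 over all genes, and the group medians were -0.26 for muscle, -0.51 for mural and -0.30 for endothelial genes. With each library's GC trend removed they were -0.02, -0.15 and 0.10, so the endothelial median changed sign.

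The knock-in lines were also compared with each other, which sets mismatched against perfect piR-A sites at the same number of sites. Here 10 of the 33 genes were called, 9 higher in 10xBulge (27.3%, beside 12.9% of all genes) and 1 lower (3.03%, beside 24.1%). With each library centred on its Sertoli genes, 0 were called higher and 6 lower (Actg2, Myh11, Rgs5, Flt1, Vwf and Sox17), while the median of all genes moved to -1.46. Both 10xBulge libraries lay above both 10xPerf libraries for 17 genes (51.5%, beside 30.7%) and below them for 4 (12.1%, beside 35.3%). The median log2 fold change was 0.57 over the 33 genes and -0.0673 over all genes.

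Of the muscle genes, Acta2 (1.32, adjusted p = 0.0496), Tagln (0.99, adjusted p = 0.092), Mylk (1.14, adjusted p = 0.0908) and Myocd (1.36, adjusted p = 0.0707) were higher in 10xBulge than in 10xPerf, but with each library centred on its Sertoli genes these differences became -0.07, -0.40, -0.25 and -0.03. Actg2 was lower by 32.5-fold, at -5.02, and stayed lower under that centring. The centring shifts all genes of a library alike, so which differences turn follows from their starting values. Of the mural genes, Notch3 (1.20, adjusted p = 0.0715) and Cspg4 (1.38, adjusted p = 0.0614) were higher and became -0.19 and -0.01 under the centring, whereas Mcam (1.60, adjusted p = 0.0181) kept a positive value of 0.21. Of the endothelial genes, Plvap (2.40, adjusted p = 0.00652) and Robo4 (2.31, adjusted p = 0.00306) were higher, and with the centring they kept 1.01 and 0.92 at adjusted p = 0.205 and 0.178. Plvap thus had its lowest level in 10xPerf and its highest in 10xBulge, with 5.29-fold between the lines.

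Single libraries decided several of these calls. Muscle genes called numbered 5 with all libraries, 3 without N1 or N2, 1 without N3, N4 or N5, and 8 without N6. Mural genes called went from 3 to 0 without N3 and to 1 without N4 or N5. Endothelial genes called went from 2 to 4 without N5, with Flt1 and Sox17 added as lower. Actg2, Plvap and Robo4 were called in each of the 6 fits that left out a library.

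Levels of whole lists put these values beside those of the other somatic cells of the testis. Each library's level is the median over a list's genes of log2(count + 1) minus the mean of the WT libraries. In N5 and N6 it was 0.93 and 0.02 for muscle genes, 0.63 and 0.21 for mural genes and 0.33 and 0.04 for endothelial genes. Over the same libraries it was 1.55 and 0.88 for Sertoli genes, 2.27 and 1.27 for Leydig genes, 1.84 and 1.36 for macrophage genes and 1.57 and 0.72 for fibroblast genes. The muscle and vessel lists thus stood lower than the other somatic lists in each 10xBulge library. The median fold changes in 10xBulge against WT were 0.41, 0.40 and 0.24 for muscle, mural and endothelial genes, beside 1.18 for Sertoli, 1.77 for Leydig, 1.68 for macrophage and 1.14 for fibroblast genes. Among these lists 7 of 10 Sertoli, 6 of 8 Leydig, 6 of 6 macrophage and 4 of 7 fibroblast genes were called higher and none lower. Of all genes tested, 11.4% were called higher and 23.0% lower. These are descriptions of the lists, with no test between them.

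**Figure D4:**
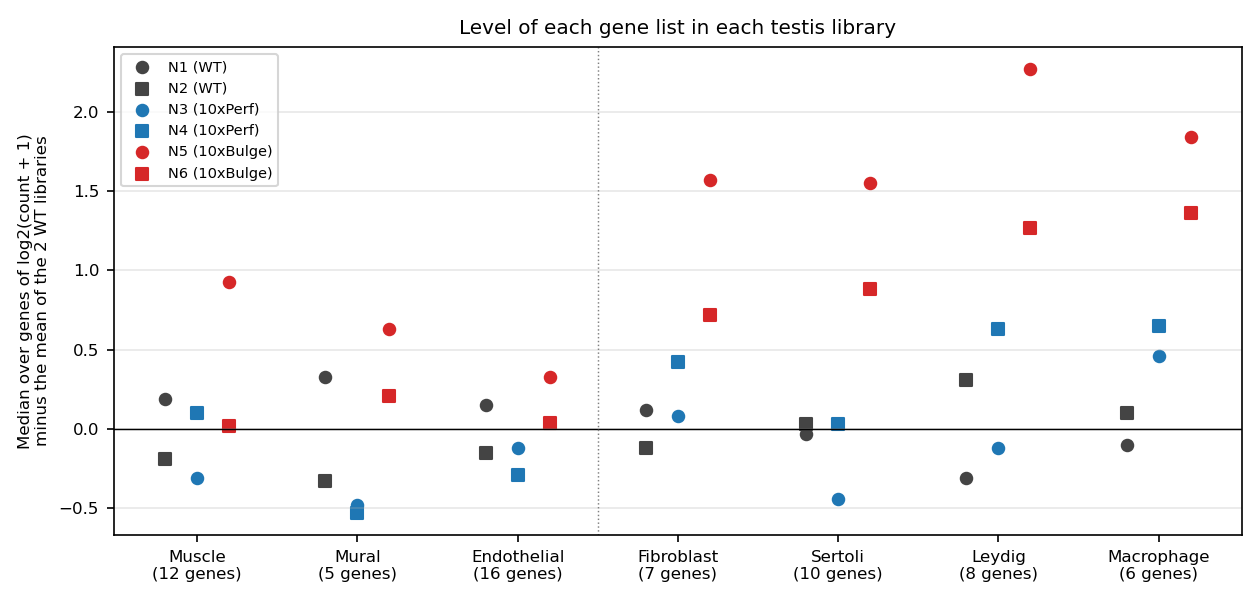
Median over the genes of a list of log2(normalised count + 1) minus the WT mean, for 7 lists (x axis) in the 6 libraries. Circles and squares are the 2 libraries of a genotype, and the dotted line parts the muscle and vessel lists from the other somatic lists. In 10xBulge the muscle, mural and endothelial points lie between 0.02 and 0.93, and those of the other lists between 0.72 and 2.27.

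The distance to the Sertoli list was negative for each muscle and vessel list in both 10xBulge libraries. It was -0.62 and -0.87 for muscle, -0.92 and -0.68 for mural and -1.22 and -0.84 for endothelial genes in N5 and N6. The muscle list was thus the nearest to the Sertoli list in N5 and the furthest in N6. In 10xPerf the distance ran from -0.56 to 0.32. In WT it ran from -0.35 to 0.35, and these values mirror each other because levels are measured from the WT mean. The N5 library was above N6 for 28 of the 33 genes (84.8%, beside 56.6% of all genes tested), by a median of 0.51, and for 10 of 10 Sertoli genes, by a median of 0.61. N1 exceeded N2 for 23 of the 33 genes (69.7%, beside 49.6% of all genes tested). Within the list, N1 was higher for 11 of the 12 genes whose transcript has at least 55% GC and for 12 of the other 21 (Spearman rho 0.42 across the 33 genes, which share both libraries). For N3 minus N4 and N5 minus N6 the rho was 0.01 and -0.16. The part of base composition in the gap between N1 and N2 was not tested.

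Tissue that comes along at dissection was looked for with its own markers. The 5 epididymis genes summed to 260 and 283 normalised counts in WT, 223 and 259 in 10xPerf, and 287 and 198 in 10xBulge, and Lcn5 was at 0 in every library. Blood genes summed to 894 to 1753 in WT, 641 to 1241 in 10xPerf and 921 to 1045 in 10xBulge over 6 genes. Striated muscle genes summed to 745 to 1047 in WT, 324 to 404 in 10xPerf and 326 to 329 in 10xBulge over 11 genes. The difference was carried by Myh6, a heart myosin heavy chain, since the other 10 genes summed to 331 and 356 in WT, 288 and 352 in 10xPerf, and 254 and 296 in 10xBulge. Alas2 made up 1586 of the 1753 counts of the blood genes in N1, and Rnase10 made up 216 of the 260 counts of the epididymis genes. The 4 fat genes summed to 663 and 919 in WT, 294 and 512 in 10xPerf, and 1995 and 346 in 10xBulge, and 4 of 4 were higher in N5 than in N6. Most muscle and vessel genes were higher in N5 as well, and the part of adhering fat in that gap was not tested.

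The wider contraction pathway was described with 28 further genes, of which 5 were called higher (17.9%, beside 11.4% of all genes) and 5 lower (17.9%, beside 23.0%) in 10xBulge against WT (median 0.47) and 0 in 10xPerf, where 0 had an unadjusted p under 0.05. Pln (phospholamban, the brake on the calcium pump of the muscle store) had 1028 and 909 normalised counts in WT, 841 and 723 in 10xPerf, and 8.83 and 10.7 in 10xBulge, and it fell by 6.50 on the log2 scale (adjusted p = 7.54e-06), the lowest value of the list. The integrin subunits Itga7 and Itga1, which anchor muscle cells to laminin and collagen, fell by 1.52 (adjusted p = 0.0199) and by 1.42 (adjusted p = 0.0343). Among the genes that rose were Tpm4 (a tropomyosin, 1.93, adjusted p = 0.0313, the highest value of the list) and the receptors of contractile hormones Avpr1a (vasopressin, 1.49, adjusted p = 0.0484) and Oxtr (oxytocin, 1.71, adjusted p = 0.0519). Each was higher in N5 than in N6, at 1522 and 638 for Tpm4, 233 and 165 for Avpr1a, and 1981 and 764 for Oxtr. The Sertoli list had a median of 1.18 in the same comparison, and the spermatid list, which fell in the same libraries, had -8.33. The part of either cell type in the values of Pln and the other contraction genes was not tested. Srf, the transcription factor of the smooth muscle programme, had 3043 and 2657 in WT, 2444 and 2042 in 10xPerf, and 1434 and 1136 in 10xBulge, and it fell by 1.15 (adjusted p = 0.0526). In 10xPerf the list ran from -1.01 for Flna (filamin, an actin crosslinker) to 1.13 for Kcnmb1 (a subunit of the BK potassium channel), neither called.

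Srf binds the CArG box, a 10-base element of CC, 6 bases that are each A or T, and GG, which reads the same way on both strands. The promoter windows of RefSeq (build GRCm38.p6, 250 bases before the start to 50 after it) matched 8 of the 12 muscle, 4 of the 5 mural and 9 of the 16 endothelial genes. An exact box lay in the window of 1 of the 8 muscle genes, Myl9, and in 1.63% of all 32851 windows. A search that allows 1 of the 6 central bases to differ, added once the exact search had been seen, matched 2 of the 8 muscle windows, 0 of the 4 mural windows and 4 of the 11 endothelial windows (9 genes), beside 9.98% of all windows. Here the 4 boxes of Myl9 and Acta2 are shown, the only muscle genes with a match. The endothelial genes with a match were Egfl7, Eng, Kdr and Tek, whose boxes are not printed. Capitals mark the box, and the sequence runs 5′ to 3′ on the strand of the gene. The Myl9 stretches lie at chr2:156775293-156775322 and chr2:156775355-156775384 (plus strand), with the first base of the box 161 and 99 bases before the start. Those of Acta2 lie at chr19:34255438-34255467 and chr19:34255388-34255417 (minus strand), with the first base 84 and 34 bases before the start.
Myl9 exact box: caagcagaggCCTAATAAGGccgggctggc
Myl9 second box: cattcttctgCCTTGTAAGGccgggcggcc
Acta2 distal box: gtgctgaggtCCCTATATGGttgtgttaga
Acta2 proximal box: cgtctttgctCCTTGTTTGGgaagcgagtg
A match in a window is a description and says nothing of whether Srf binds there. In 10xBulge against WT, Myl9 and Acta2 had log2 differences of 0.48 and 0.80, neither called. Any link between these values and the level of Srf was not tested.

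Vessel signalling was described with 30 further genes, of which 5 were called higher (16.7%, beside 11.4% of all genes) and 7 lower (23.3%, beside 23.0%) in 10xBulge against WT (median 0.07), and 0 in 10xPerf, where 2 had an unadjusted p under 0.05. Gata2 (a transcription factor of blood and endothelium) had 1183 and 942 normalised counts in WT, 1379 and 1158 in 10xPerf, and 150 and 117 in 10xBulge, and fell by 2.99 (adjusted p = 0.000427), the lowest value of the list. Edn1 (endothelin-1, a vasoconstrictor peptide) had 43.3 and 56.3 in WT, 55 and 81.9 in 10xPerf, and 300 and 238 in 10xBulge, and rose by 2.41 (adjusted p = 0.00441), the highest value. Ligands that fell were Jag1 (a Notch ligand, by 1.61, adjusted p = 0.0182), Angpt2 (the TIE2 ligand that destabilises vessels, by 2.36, adjusted p = 0.0331) and Pdgfa (a PDGF ligand, by 1.48, adjusted p = 0.0356). Angpt2 was sparse, at 18.7 and 37.5 in WT and 6.85 and 2.68 in 10xBulge, where N6 is under the value of 3 reads. Notch1 rose by 1.29 (adjusted p = 0.058), while its relative Notch3 on the mural list had a difference of -0.19 and was not called. In 10xPerf the list ran from -1.63 for Nos3 (endothelial nitric oxide synthase, adjusted p = 0.309) to 1.30 for Angpt2 (adjusted p = 0.853).

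The reference point of the scaling decides the sign of the typical gene in 10xBulge. With library totals the median of all genes moved to 0.35 and those of muscle, mural and endothelial genes to 0.79, 0.78 and 0.62, with 10 of the 33 genes called higher and 2 lower. Centring each library on its 10 Sertoli genes moved the median of all genes to -1.29 and the group medians to -0.86, -0.86 and -1.02, with 1 gene called higher (Robo4) and 11 lower. These scalings shift the genes of a library alike, so the distance of a list from the median of all genes hardly depends on them. That distance was 0.43 for muscle, 0.43 for mural and 0.27 for endothelial genes, and it was 0.02, 0.21 and 0.05 without N5, 1.02, 0.91 and 0.23 without N1, and 0.26, 0.26 and 0.09 with a filter of 10 in every library. Actg2 and Sox17 remained called lower and Robo4 higher in both.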

How the data were processed

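Total RNA of whole adult testes was sequenced in 6 libraries, as single reads of 100 bases after ribosomal RNA depletion, with 500 ng as input. The authors quantified the reads against Ensembl transcripts of GRCm39 with salmon, correcting for GC bias, and normalized the gene values with DESeq2. The deposited signal, normalized counts for each gene, does not consist of whole reads. The table also holds the authors' mean over libraries, the log2 fold changes of each line against WT deposited by the authors, and their deposited adjusted p-values, none of which was used. A gene was tested if 2 or more libraries reached 10. Values were transformed to log2(value + 1), and limma 3.58.1 (R 4.3.3) was fitted to all 6 libraries, with genotype as the factor and a mean-variance trend. P-values were adjusted over 23782 genes, and a gene was called under 0.1. Without whole reads, no count test was run. Fold changes are on the log2(value + 1) scale, which understates those of low genes.

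The genes, their lists and the tests were chosen with earlier results of these data known. All 33 genes are named. From the contraction and vessel signalling lists, up to 6 called genes without overlap of libraries are named by smallest p, plus the lowest and highest fold change. Srf was named in addition, for its binding motif, after its values were seen. Lengths and GC content are those of the longest GENCODE transcript (GRCm38). On simulated data for 10xBulge against WT, with 23782 genes, the procedure recovered 0% of genes changed by 1 on the log2 scale, 4% at 2, 54% at 3 and 56% at 4. In that simulation 50 genes were changed at each size and 62 were called, beside 8178 called in the data. With so few changed genes the adjustment is stricter, so these rates do not carry over to the real comparison. Alternatives were other scalings, filters, pseudocounts (0.1 and 10) and thresholds, the GC trend removed (loess, span 0.3), and each library left out. Library numbers differ between genotypes, and the sources do not say whether replicates are separate mice.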

Additional observations from a re-analysis of the deposited data

How the results depend on the processing

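No paired analysis was possible because the library numbers are not shared between genotypes. Over 17 alternatives, Actg2, Sox17 and Robo4 kept their calls in 10xBulge against WT, and no muscle or mural gene was called in 10xPerf. In 10xBulge against WT, muscle genes called went from 3 to 5 with library totals and to 1 at an adjusted p under 0.05 or with no mean-variance trend. Mural genes called went from 0 to 2 with library totals, 2 (both lower) with centring on Sertoli genes and 1 with the GC trend removed. Endothelial genes called went from 2 to 5, 7 and 4 under those 3 settings. In 10xPerf against WT, 1 endothelial gene, Sox17, was called when only the 2 genotypes were fitted. In 10xBulge against 10xPerf, muscle genes called went from 5 to 2 with a filter of 1 in 1 library, only the 2 genotypes or an adjusted p under 0.05, and to 3 with no trend. Mural genes called went from 3 to 1 with an adjusted p under 0.05 or the GC trend removed, and endothelial genes from 2 to 4 with the GC trend removed. With Sertoli centring every higher call between the lines was lost, and the calls were 2 muscle (Actg2, Myh11), 1 mural (Rgs5) and 3 endothelial genes (Flt1, Vwf, Sox17), lower in 10xBulge. The cause was not tested, apart from the stricter threshold. Leaving out each library gave 1 to 3 muscle, 0 to 0 mural and 2 to 4 endothelial genes called in 10xBulge against WT, 0 to 1 endothelial genes in 10xPerf against WT, and 1 to 8 muscle, 0 to 3 mural and 2 to 4 endothelial genes between the lines. Centring on Sertoli genes turned 6 called differences between the lines, to -0.07 for Acta2, -0.40 for Tagln, -0.25 for Mylk, -0.03 for Myocd, -0.19 for Notch3 and -0.01 for Cspg4. With 2 libraries a genotype, small changes are often missed, and genes near the threshold move with single libraries.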

Other observations

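The lymphatic markers were split in 10xBulge. Prox1, the transcription factor of lymphatic identity, had 477 and 475 normalised counts in WT, 702 and 596 in 10xPerf, and 138 and 35.3 in 10xBulge, and it fell by 2.75 on the log2 scale (adjusted p = 0.00894 by limma). Flt4, the VEGF receptor-3 of lymphatic endothelium, had 1144 and 513 in WT, 522 and 582 in 10xPerf, and 123 and 87.5 in 10xBulge, and it fell by 2.88 (adjusted p = 0.00196). Pdpn (podoplanin) and Reln (reelin) rose by 1.47 (adjusted p = 0.0695) and by 1.20 (adjusted p = 0.0558). Lyve1, the hyaluronan receptor that is the classic lymphatic surface marker, was sparse, at 16.6 and 19.6 in WT and 24.3 and 17.8 in 10xBulge, a difference of 0.20 (adjusted p = 0.839). Of the 5 markers, 2 were thus called higher and 2 lower, beside 11.4% and 23.0% of all genes. None of these genes is particular to lymphatic vessels in whole testis, and the cells that carry them were not identified.

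The fat markers stood out for their gap within 10xBulge. Lep (leptin) had 639 normalised counts in N5 and 34.2 in N6, beside 42.7 and 45.1 in WT and 0.691 and 9.2 in 10xPerf. Adipoq (adiponectin) had 212 in N5 and 11.4 in N6, beside 360 and 444 in WT and 223 and 344 in 10xPerf. No other list examined for replicate gaps (muscle, mural, endothelial, Sertoli, Leydig, macrophage and fibroblast genes) had a median gap between N5 and N6 as wide as the 3.80 of the 4 fat genes on the log2 scale. Within 10xPerf the fat genes also had the widest median gap of these lists, at -1.83 for N3 minus N4.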
